A study of Macaca mulatta with 304 samples.

Results

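The 10 genes described here encode proteins of neutrophil granules and were followed in the blood of irradiated monkeys. They were MPO, ELANE, AZU1, CTSG and BPI of the azurophil granules, LTF, LCN2, CAMP and MMP8 of the specific granules, and MMP9 of the gelatinase granules. The genes were chosen by symbol from the table of read counts, which made 10 of its 21070 genes, and 8 of the 13751 genes with enough counts to be tested. ELANE and CTSG did not reach the required 3 counts in 80% of samples.

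Whole blood RNA was sequenced from 304 samples of 28 rhesus macaques (Macaca mulatta, Chinese sub-strain, 14 females and 14 males). The thorax was irradiated once with 9.8 Gy in 12 animals or with 10.7 Gy in 16 animals, and no animal was kept unirradiated. The 24 control samples were drawn 2 days before irradiation, so each animal was its own control where it had one. All animals were adults of 3 to 5 years, and all received the antiemetic ondansetron and ketamine with xylazine before irradiation and tramadol or buprenorphine from Day 4 to Day 25. Animals with rapid breathing also received the glucocorticoid dexamethasone, and its dates are not given in the labels. Blood was taken from a peripheral vein and was not separated into cell types. Samples of Day 3 to 21 were called early (28 animals), those of Day 30 to 90 medium (93 samples, 28 animals) and those of Day 120 to 270 late (47 samples, 14 animals). The late animals were those still sampled then, 11 at 9.8 Gy and 3 at 10.7 Gy, and 12 of them had a control. Another 8 samples were drawn on unscheduled days.

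Neutrophils make their granules one kind after another while they mature in the bone marrow. Azurophil granule proteins, such as the proteases of the elastase family and myeloperoxidase, are made at the promyelocyte stage, specific granule proteins at the myelocyte and metamyelocyte stages, and gelatinase granule proteins later still. Most of this transcription has ended when a mature neutrophil enters the blood, so in whole blood the RNA of early granule proteins is known as a trace of immature cells.

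The samples held between 2840219 and 23638161 reads on genes (median 8227563), with a median of 11697186 in controls and 6904216 in late samples. The sample descriptions carry a library number that was 0, of a lower range or of a higher range, and its meaning is not stated. Of the controls 20 carried a number of the lower range and 4 the number 0, whereas of the late samples 7 carried one of the higher range and 40 the number 0. No animal had a control and a late sample of the same range, so late samples could be compared with control at a given range only in 1 fit over all samples with the range as a term. Late and medium samples could be compared within the number 0. All 5 neutrophil markers (CSF3R, CXCR2, S100A8, S100A9 and FPR1) were present in every window, and their summed level was 709 to 7365 CPM in controls (median 2584). CPM here are counts over the library size after scaling by the upper quartile, in the usual unit. In such blood RNA, more or fewer cells of a type and more or less RNA per cell cannot be told apart.

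On the Mmul_10 assembly AZU1 (chromosome 19, 597615 to 602068) and ELANE (chromosome 19, 621034 to 624911) lie on the same strand, in the region where the primate azurophil protease genes are clustered. BPI (chromosome 10, 73570846 to 73605425) and MMP9 (chromosome 10, 81199354 to 81207515) share a chromosome, as do LTF (chromosome 2, 102443568 to 102473743) and CAMP (chromosome 2, 104256040 to 104258022). MPO lies on chromosome 16 (38521023 to 38532201), CTSG on chromosome 7 (86643295 to 86646053), LCN2 on chromosome 15 (12445748 to 12450081) and MMP8 on chromosome 14 (95993992 to 96007051). No other annotated gene overlapped any of the 10. The 250 bases before each gene start were read from the assembly on the strand of the gene. Those of LCN2 and CAMP are shown as examples that hold motif letters. Members without any such letters, among them MMP8 and BPI, also rose late. Capitals mark matches on either strand to the letters of a C/EBP motif (TTGCNNAA), a PU.1 motif (GAGGAAG) or an AP-1 motif (TGANTCA), factors known in myeloid cells.
LCN2, Mmul_10 chr15:12450082-12450331, minus strand: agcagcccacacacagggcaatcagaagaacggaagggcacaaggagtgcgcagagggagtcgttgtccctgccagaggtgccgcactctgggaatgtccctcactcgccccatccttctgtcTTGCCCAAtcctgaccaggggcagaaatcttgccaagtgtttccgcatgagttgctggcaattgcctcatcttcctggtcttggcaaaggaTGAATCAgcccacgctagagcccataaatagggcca
CAMP, Mmul_10 chr2:104255790-104256039, plus strand: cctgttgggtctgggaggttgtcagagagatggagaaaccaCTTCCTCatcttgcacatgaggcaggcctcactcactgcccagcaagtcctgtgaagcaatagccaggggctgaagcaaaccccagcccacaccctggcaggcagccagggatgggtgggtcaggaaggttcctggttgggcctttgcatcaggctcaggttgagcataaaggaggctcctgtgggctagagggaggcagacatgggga

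Before LCN2 stood the C/EBP letters (127 bases before the start) and the AP-1 letters (36 bases), and before CAMP the PU.1 letters (209 bases). Of the 10 members 1 held the C/EBP letters, 3 the AP-1 letters and 2 the PU.1 letters. MPO, ELANE, AZU1, BPI, LTF and MMP8 held none of them. Of 20787 windows before protein-coding genes, 8.05% held the C/EBP letters, 5.15% the AP-1 letters and 9.95% the PU.1 letters. With so few members, no difference from all genes can be read from these counts.

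The levels of the 10 genes before irradiation differed widely when set per length. CAMP, the precursor of the antimicrobial peptide cathelicidin, had the highest level in control samples, with 78.2 to 500.5 RPKM (CPM per kilobase of exon, median 166). MMP9, the gelatinase that degrades denatured collagen, followed with 15.1 to 120 RPKM (median 58.4). The next 4 overlapped widely. AZU1 (azurocidin) had a median of 2.91 RPKM, LTF (the iron-binding lactoferrin) 2.72, LCN2 (the siderophore-binding lipocalin) 2.38 and BPI (which binds bacterial lipopolysaccharide) 1.99. The collagenase MMP8 (0.417), elastase ELANE (0.338), myeloperoxidase MPO (0.327) and cathepsin G CTSG (0.151) had the lowest medians. In late samples CAMP (426 RPKM) and MMP9 (183 RPKM) were still the highest, LCN2 (11.1) and BPI (7.81) stood above LTF (4.86) and AZU1 (4.46), and CTSG (0.403) was still the lowest.

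AZU1 rose early. Its level was 0.384 to 7.77 CPM in controls (median 4.09), 2.003 to 25.0 CPM on Day 3 (median 10.9) and 1.29 to 29.4 CPM on Day 6 (median 9.68). On Day 3, 19 of 24 samples lay above the highest control, and on Day 6, 18 of 28. By Day 9 the median was 5.24 CPM and most samples lay within the range of controls. Against the same animals' controls AZU1 had a log2 fold change of 1.48 ± 0.12 (± is the standard error throughout) on Day 3, with 24 of 24 animals higher (adjusted p = 4.35e-11, edgeR), and of 1.13 ± 0.18 on Day 6. It was 0.10 ± 0.17 on Day 9 and did not pass the test. Over all early samples AZU1 was the 1 gene of the 8 tested that passed (log2 fold change 0.89 ± 0.10, adjusted p = 4.76e-08, edgeR, 24 of 24 animals). Of all genes tested 5.79% were called higher in this comparison, where a call needs an adjusted p up to 0.05 together with a fold of 1.5 or more.

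MPO, which makes hypochlorous acid, was also higher on Day 3. Its level was 0 to 5.51 CPM in controls (median 1.08) and 0.505 to 6.05 CPM on Day 3 (median 1.87), and these ranges overlapped almost wholly. Its log2 fold change was 0.63 ± 0.17 (adjusted p = 0.00246, edgeR), higher in 21 of 24 animals. The call was lost without the replicate block (0.52, adjusted p = 0.198, edgeR) and in 1 fit over all samples with the library number range as a term (0.58, adjusted p = 0.0250, edgeR), where the fold was under the limit. Over the whole early window the log2 fold change was 0.38 ± 0.17 (adjusted p = 0.0704, edgeR). The early window test was passed in the 10.7 Gy animals alone (0.93, adjusted p = 0.00878, edgeR), while the difference between doses was not (adjusted p = 0.86, edgeR). MMP8 moved the other way on Day 3, from 0.140 to 5.38 CPM in controls (median 1.31) to 0.200 to 2.08 CPM (median 0.659). Its log2 fold change was -0.73 ± 0.26 (adjusted p = 0.0180, edgeR), lower in 16 of 24 animals, and on Day 6 it was 0.30 and did not pass. On Day 3, 6.89% of all genes were called higher and 4.62% lower.

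On Day 6 CAMP (0.61 ± 0.17) and MMP9 (0.65 ± 0.21) were called higher beside AZU1, where 6.04% of all genes were. No member passed on Day 9 or Day 15, where 7.58% and 6.01% of all genes did. On Day 21 LTF was the 1 member called, with a log2 fold change of -0.65 ± 0.26, where 2.73% of all genes were called lower. These calls depended on the fit. With the library number range as a term, 0 members were lower and 1 higher on Day 21, where 2.68% and 6.78% of all genes were. In that fit 1 member was lower on Day 9, where 2.73% of all genes were. Over the early window the log2 fold changes of BPI (0.23), CAMP (0.09), LCN2 (0.18), LTF (-0.24), MMP8 (-0.12) and MMP9 (0.27) did not pass. The other cells of the blood moved too. All 4 erythroid markers rose early (median log2 fold change 1.76), from a summed level of 1526 to 10835 CPM in controls (median 6022) to 3286 to 78032 CPM (median 16713), and all 4 B cell markers fell (median -1.02). Of the 5 neutrophil markers 1 rose early, and their summed level was 632 to 6505 CPM (median 2385). Over the early window 796 of the 13751 genes tested were called higher and 240 lower. On Day 3 none of the neutrophil and 4 of the 5 monocyte markers were called higher. The part of these cells in the rise of AZU1 was not tested.

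Beside AZU1, other azurophil granule genes gave 2 of 7 tested genes higher early and 0 lower, where 5.79% of all genes were called higher. They were the bacterial wall enzyme LYZ (0.91 ± 0.14, 22 of 24 animals) and the ribonuclease RNASE3 (0.94 ± 0.19, 21 of 24 animals). LYZ is also strongly expressed in monocytes, and RNASE3 is also a gene of eosinophil granules. The median of the 7 was 0.33, against -0.02 over all genes tested. By the median of all samples PRSS57 (26.4 CPM in controls, 19.1 early), CD63 (77.1, 64.6) and CST7 (67.9, 61.6) were lower early. CTSC (49.1, 59.1) and SRGN (993, 1280) were higher, and none of these was called. None of 18 other genes of specific and gelatinase granules passed early. ELANE, the chromosomal neighbour of AZU1, could be fitted only with no filter on low counts, and its early log2 fold change was 0.30 ± 0.21 (adjusted p = 0.284, edgeR).

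**Figure D1:**
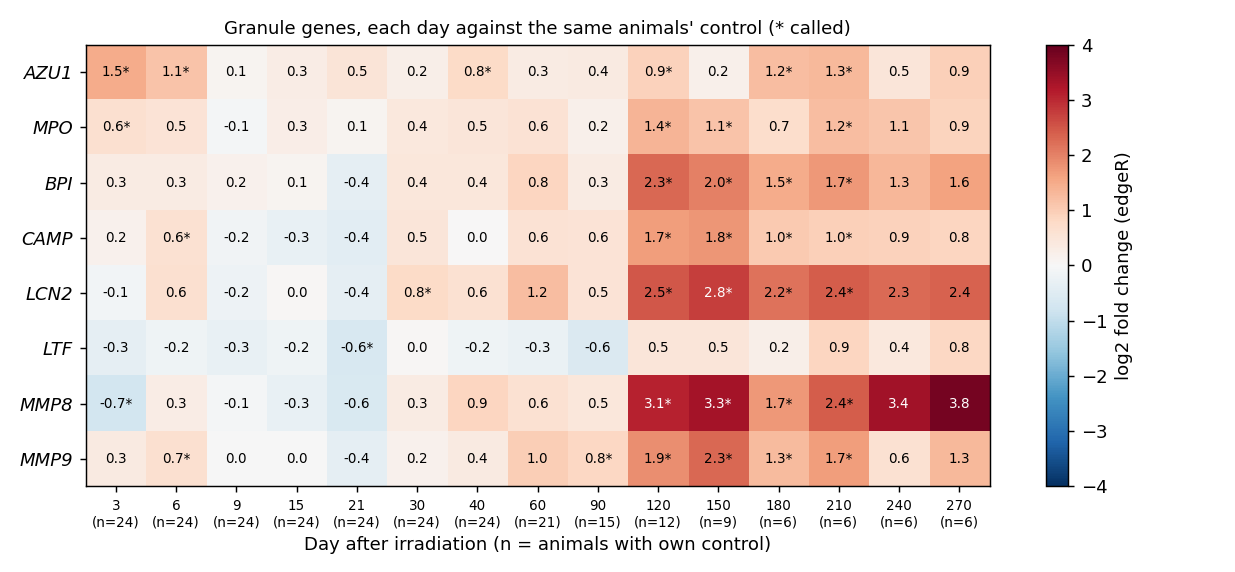
Log2 fold change from each animal's own control on each scheduled day for the 8 tested genes (columns are days, rows are genes, colour and printed value are the log2 fold change, and a star marks a call). AZU1 stands out on Day 3 (1.48) and Day 6 (1.13), and from Day 120 on MMP8 and LCN2 hold the highest values, such as 3.08 and 2.47 on Day 120.

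In the medium window 4 of 8 tested members rose, where 4.28% of all genes tested were called higher and 1.11% lower. AZU1 was higher by 0.60 ± 0.11 (adjusted p = 0.000121, edgeR), BPI by 0.76 ± 0.20 (adjusted p = 0.00273), LCN2 by 1.13 ± 0.30 (adjusted p = 0.00356) and MMP9 by 0.86 ± 0.20 (adjusted p = 0.00111), all on the log2 scale and each in 18 to 20 of 24 animals. LCN2 was 0.409 to 10.3 CPM in controls (median 2.09) and 0 to 174 CPM in medium samples (median 2.98). MMP9 was 35.2 to 279 CPM in controls and 27.3 to 3755 CPM in medium samples (median 160). Of the 93 medium samples 30 lay above the highest control for AZU1, 25 for MMP9, 24 for BPI and 11 for LCN2, so most did not pass the highest control. The call of AZU1 was lost without animal B1001, B1005, B2002, B2003, B2501, B2502 or B2503, where its log2 fold change of 0.55 to 0.58 fell below the fold required, and without B1503 the members called numbered 7.

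CAMP (0.57, adjusted p = 0.00122, edgeR) and MPO (0.56, adjusted p = 0.0413) passed the p limit with folds of 1.48 and 1.47, under the fold required. MMP8 had a log2 fold change of 0.96 ± 0.40 (adjusted p = 0.0501, edgeR), and LTF one of -0.05 (adjusted p = 0.888). Set against the early window of the same 28 animals, LCN2 (0.85 ± 0.30, adjusted p = 0.0147, edgeR) and MMP8 (0.87 ± 0.34, adjusted p = 0.0316, edgeR) were higher in the medium window, where 1.51% of all genes were called higher. The call of MMP8 was lost without animal B1504, B2003, B2007 or B2505, with 0.71 to 0.76. Single days gave few calls, with LCN2 (0.75 ± 0.22) higher on Day 30, AZU1 (0.77 ± 0.14, 23 of 24 animals) on Day 40, none on Day 60 and MMP9 (0.82 ± 0.22) on Day 90, where 4.57%, 4.07%, 2.31% and 3.87% of all genes were called higher. The form of the fit changed these counts. In 1 fit over all samples with the library number range as a term, 6 members were called higher on Day 60 and 3 on Day 90, where 3.04% and 5.2% of all genes were, and LCN2 was not called on Day 30 (0.47, adjusted p = 0.681, edgeR). Its call on Day 30 was also lost without the replicate block (0.66, adjusted p = 0.0768, edgeR) and within 1 range (0.74, adjusted p = 0.239, edgeR). The fit within 1 range held only the 4 animals, all at 10.7 Gy, whose control carried the number 0. Its value was close to that of the main fit.

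The doses differed in the medium window for 7 of the 8 genes tested. Changes from control were compared between 12 animals at each dose over Day 30 to 60, and for MPO, BPI, LTF, LCN2, CAMP, MMP8 and MMP9 they were higher at 10.7 Gy, where 3.37% of all genes tested were called higher and 0.56% lower. CAMP had the smallest adjusted p, with a difference of 1.31 ± 0.14 on the log2 scale (adjusted p = 7.47e-06, edgeR), and it was higher than control in 12 of 12 animals at 10.7 Gy and in 3 of 12 at 9.8 Gy. The difference was 2.86 ± 0.65 for MMP8 (adjusted p = 0.00596, edgeR), 2.58 ± 0.42 for LCN2 (adjusted p = 0.000349) and 1.85 ± 0.26 for BPI (adjusted p = 9.41e-05). BPI, LCN2, MMP8 and MMP9 were higher than control in 12 of 12 animals at 10.7 Gy, and in 4, 5, 5 and 5 of 12 at 9.8 Gy.

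MMP9 differed by 1.69 ± 0.31 (adjusted p = 0.00101, edgeR), MPO by 1.59 ± 0.34 (adjusted p = 0.00393) and LTF by 1.53 ± 0.47 (adjusted p = 0.0393). The call of LTF was lost in 14 of 24 refits that each left out 1 animal (B1003, B1005, B1006, B1503, B1504, B1505, B2002, B2003, B2007, B2501, B2502, B2503, B2504 or B2505), with differences of 1.33 to 1.52 and adjusted p of 0.0542 to 0.0699 (edgeR). AZU1 differed by 0.57 with a 95% interval of 0.12 to 1.03 (adjusted p = 0.127, edgeR) and did not pass. In the medium window 7 members were called higher in the 10.7 Gy animals alone, where 7.15% of all genes were, and 0 in the 9.8 Gy animals alone, where 2.69% were.

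Part of these differences lay in the controls. The control medians were 5.05 CPM at 9.8 Gy and 3.01 at 10.7 Gy for BPI, 2.04 and 0.689 for MPO, 123.7 and 82.6 for CAMP, 2.35 and 1.42 for LCN2, and 168 and 119.1 for MMP9. All 12 controls at 9.8 Gy carried library numbers of the lower range, and of those at 10.7 Gy 8 did and 4 carried the number 0. With irradiated samples only and no controls, 6 members were higher at 10.7 Gy, where 2.23% of all genes were called higher, and the differences were 2.45 for MMP8, 1.97 for LCN2, 1.23 for MMP9, 1.12 for BPI, 1.02 for AZU1 and 0.73 for CAMP. MPO (0.10, adjusted p = 0.874, edgeR) and LTF (0.77, adjusted p = 0.128) were then not called, so the difference of MPO was not seen without the controls.

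On single days, the calls between doses came mostly on Day 60. With Day 30 alone 0 members differed, with Day 40 alone CAMP did (1.23), and with Day 60 alone all 8 did, where 0%, 0.0291% and 10.5% of all genes were called higher. Day 30 and Day 40 held 24 animals with a control, and Day 60 held 21. B2005, B2007 and B2503, all at 10.7 Gy, had no sample on Day 60, so the days did not compare the same animals. On Day 60 MMP9 was 27.3 to 405 CPM at 9.8 Gy (median 122.5) and 69.3 to 3755 CPM at 10.7 Gy (median 621.5), against 35.2 to 279 CPM in controls of both doses. LCN2 was 0 to 10.9 CPM at 9.8 Gy (median 1.30) and 0.861 to 174 CPM at 10.7 Gy (median 9.55). AZU1 was 0.910 to 5.91 CPM at 9.8 Gy (median 2.25) and 5.88 to 27.1 CPM at 10.7 Gy (median 9.91), so that its groups overlapped only at their edges. All 8 members also differed on Day 60 with only its samples of library number 0 (1.88 for CAMP to 4.76 for MMP8, where 10.3% of all genes were called higher) and with no controls (1.09 for MPO, adjusted p = 0.0393, edgeR, to 4.91 for MMP8, where 9.29% were).

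CAMP was 29.3 to 384 CPM at 9.8 Gy on that day (median 90.7) and 103.5 to 1034 CPM at 10.7 Gy (median 283). BPI was 0.201 to 8.64 CPM at 9.8 Gy (median 3.86) and 2.15 to 71.6 CPM at 10.7 Gy (median 14.4). MMP8 was 0 to 1.92 CPM at 9.8 Gy (median 0.438) and 0.430 to 124.2 CPM at 10.7 Gy (median 3.13). Each of these was higher at 10.7 Gy by its median, the doses overlapped, and the 10.7 Gy group spread more widely. All 5 neutrophil markers also differed between doses over Day 30 to 60 (median 1.24 on the log2 scale). So did 12 of 15 late-stage neutrophil genes, 2 of 5 monocyte markers and 2 of 6 genes of the glucocorticoid response. Of all genes tested 3.37% were called higher there and 0.56% lower. The part of these markers in the result was not tested. In the early window 0 members differed between doses, where 0% of all genes tested did, with differences from -0.04 for AZU1 to 1.09 ± 0.58 for MMP8.

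**Figure D2:**
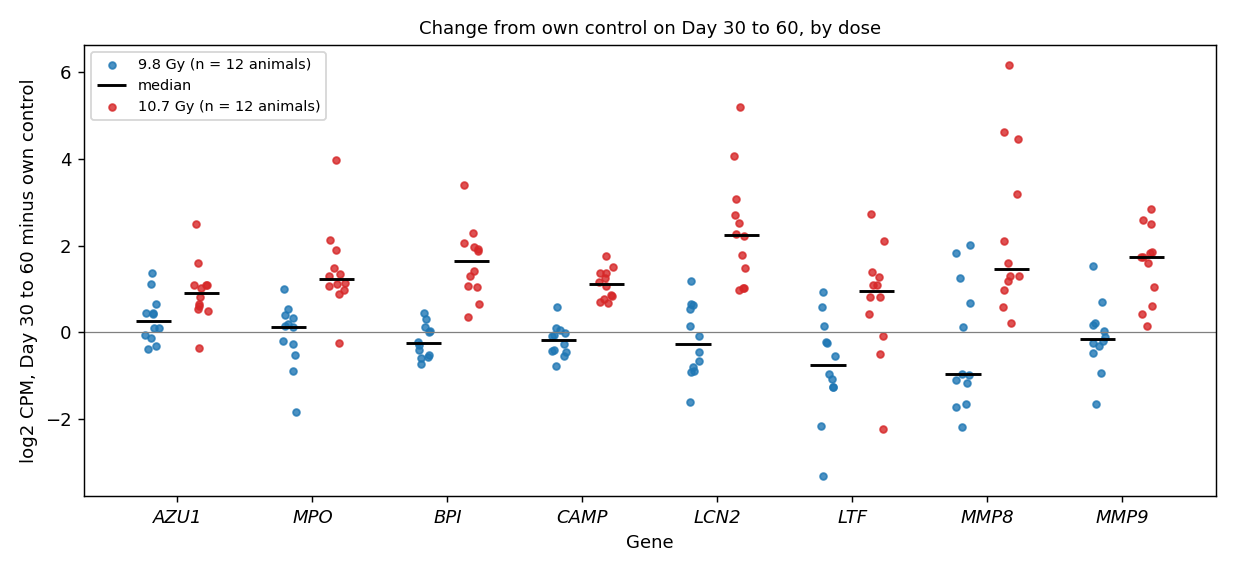
Log2 change of each animal from its own control over Day 30 to 60 for the 8 tested members, with animals at 9.8 Gy and 10.7 Gy apart (points are animals, lines are medians, 12 animals at each dose). All 12 animals at 10.7 Gy lie above 0 for BPI, LCN2, CAMP, MMP8 and MMP9, against 3 to 5 of 12 at 9.8 Gy.

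All 8 tested members rose late. In the 12 animals with a control they were called higher, where 14.4% of all genes tested were called higher and 19.6% lower. MMP8 rose most, from 0.140 to 5.38 CPM in controls (median 1.31) to 0.401 to 616 CPM in late samples (median 5.90), and 25 of 47 late samples lay above the highest control. Its log2 fold change was 3.35 ± 0.39 (adjusted p = 1.26e-05, edgeR), higher in 12 of 12 animals. LCN2 was 0.740 to 338 CPM in late samples (median 9.73) against a median of 2.09 in controls, and 22 of 47 samples lay above the highest control. Its log2 fold change was 2.80 ± 0.31 (adjusted p = 8.5e-06, edgeR), higher in 12 of 12 animals.

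BPI and MMP9 were the members whose late samples most often left the range of controls. BPI was 1.29 to 8.26 CPM in controls (median 3.76) and 3.41 to 93.3 CPM in late samples (median 14.8), with 34 of 47 above the highest control. Its log2 fold change was 2.25 ± 0.30 (adjusted p = 3.38e-05, edgeR). MMP9 was 65.5 to 3802 CPM in late samples (median 427), with 33 of 47 above the highest control of 279, and its log2 fold change was 2.24 ± 0.39 (adjusted p = 0.000249, edgeR). CAMP was 45.7 to 1344 CPM in late samples (median 250) against 45.8 to 293 CPM in controls (median 97.5), with a log2 fold change of 1.64 ± 0.26 (adjusted p = 0.000132, edgeR). These 3 genes were higher in 12 of 12 animals.

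The other 3 tested members rose less, and their groups overlapped more. MPO was 0.243 to 12.6 CPM in late samples (median 4.56), with a log2 fold change of 1.20 ± 0.29 (adjusted p = 0.00282, edgeR), higher in 10 of 12 animals. AZU1 was 0 to 26.4 CPM (median 6.28), with a log2 fold change of 0.96 ± 0.18 (adjusted p = 0.000479, edgeR), higher in 11 of 12 animals. LTF was 2.86 to 60.8 CPM in controls (median 10.1) and 3.32 to 101.3 CPM in late samples (median 18.1), with a log2 fold change of 0.65 ± 0.24 (adjusted p = 0.0313, edgeR), higher in 9 of 12 animals. The call of LTF was lost when animal B1001, B1004, B1502, B1506 or B2502 was left out, with log2 fold changes of 0.52 to 0.61 and adjusted p of 0.0575 to 0.0755 (edgeR). Without B2502, the 1 animal of the 12 at 10.7 Gy, 7 members were called, where 13.7% of all genes were called higher, and LTF was not (0.52). The median log2 fold change was 1.94 over the 8 members and -0.15 over all genes tested, and the latter was -0.05 with TMM scaling.

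**Figure D3:**
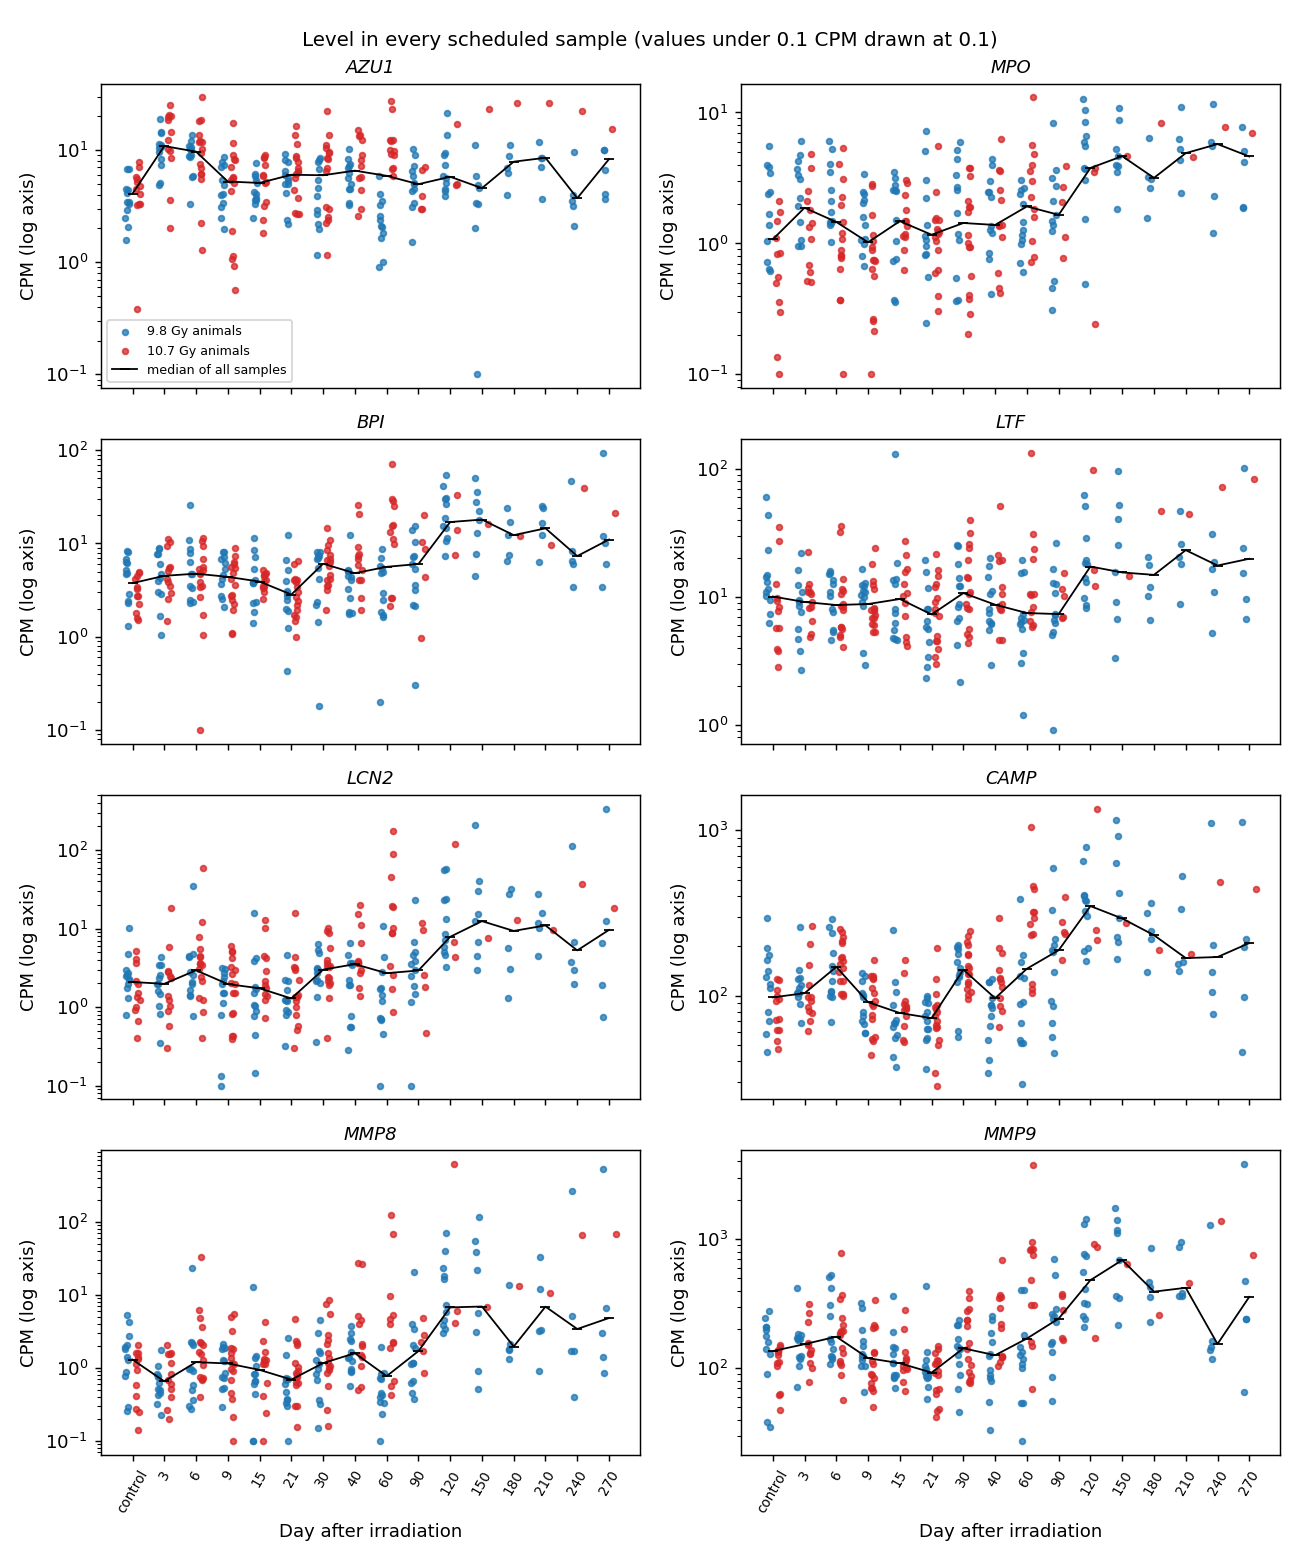
CPM of the 8 tested genes in every scheduled sample by day (log axis, colour by dose, the line joins the medians of all samples, and values under 0.1 CPM are drawn at 0.1), with AZU1, MPO and BPI of the azurophil granules, LTF, LCN2, CAMP and MMP8 of the specific granules and MMP9 of the gelatinase granules. AZU1 peaks on Day 3 and Day 6 (medians 10.9 and 9.68 CPM), while BPI, LCN2, CAMP, MMP8 and MMP9 have their highest daily medians on Day 120 or Day 150, and single 10.7 Gy samples on Day 60 reach 3755 CPM for MMP9.

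On single days most members were called from Day 120 on. Day 120 gave 7 of the 8 members higher (12 animals, all but LTF), Day 150 and Day 180 gave 6 each (9 and 6 animals) and Day 210 gave 7 (6 animals), where 31.8%, 31.5%, 18.7% and 29.8% of all genes were called in either direction. On Day 120 and Day 210 12.7% and 12.8% were called higher, and on Day 150 and Day 180 1648 and 1211 of the 13751 genes were. The log2 fold change of MMP8 lay between 1.75 ± 0.50 (Day 180) and 3.33 ± 0.70 (Day 150) over these 4 days. On Day 240 and Day 270, with 6 animals each, 0 members passed, where 3.26% and 0% of all genes were called higher, although MMP8 had log2 fold changes of 3.36 ± 1.06 (adjusted p = 0.0743, edgeR) and 3.83 ± 1.04 (adjusted p = 0.0763, edgeR). These counts of 0 depended on the fit. In 1 fit over all samples with the library number range as a term, where all samples share 1 estimate of the spread, 6 members were called on Day 240 and 8 on Day 270, where 12.6% and 15.1% of all genes were called higher. The same fit called 8, 7, 6 and 7 members on Days 120, 150, 180 and 210, where 15.4%, 13.4%, 7.3% and 13.6% of all genes were.

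On those last days the 6 animals did not move alike. On Day 240 MMP9 was at 1290 CPM in animal B1503 and 1376 CPM in animal B2502, and between 117.1 and 163.4 CPM in the other 4. On Day 270 B1503 had the highest MMP9 (3802 CPM), MMP8 (535 CPM) and LCN2 (338 CPM) of all days in these 6 animals. The lowest MMP9 on that day was 65.5 CPM, within the range of controls.

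Late samples were also set against the medium samples of the same 14 animals. BPI (2.13 ± 0.25), CAMP (1.61 ± 0.23), LCN2 (2.73 ± 0.36), LTF (1.33 ± 0.23), MMP8 (3.41 ± 0.55) and MMP9 (2.07 ± 0.23) were higher in 14 of 14 animals, and MPO (1.17 ± 0.19) in 12 of 14. The largest adjusted p of these 7 was 0.000196 (edgeR), and 9.85% of all genes tested were called higher and 14.7% lower. AZU1 had a log2 fold change of 0.51 ± 0.14 (adjusted p = 0.00564, edgeR), a fold of 1.42 that was under the limit. With only samples of library number 0 these 7 members were called again, from 1.05 for MPO to 3.39 for MMP8, where 9.24% of all genes were called higher.

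The neutrophil markers moved with the members late, where 14.4% of all genes tested were called higher. All 5 rose (median log2 fold change 1.51), and their summed level was 1319 to 15888 CPM in late samples (median 5270) against 709 to 7365 CPM in controls. Each member was therefore also expressed per 1000 counts of these 5 markers in the same animal, as a description. MMP8 went from a median of 0.590 to 2.38 and was higher in 9 of 12 animals, LCN2 from 0.991 to 2.29 (11 of 12), BPI from 1.72 to 4.03 (12 of 12) and MMP9 from 50.1 to 95.8 (11 of 12). CAMP went from 46.2 to 59.3 and was higher in 10 of 12. AZU1 went from 1.55 to 1.34, MPO from 0.945 to 0.897 and LTF from 5.71 to 4.75, and each was higher in 5 of 12. In the early window AZU1 per 1000 marker counts went from 1.55 to 3.20 and was higher in 22 of 24 animals. So set against the neutrophil markers the members differed late, with the medians of MMP8, LCN2, BPI, MMP9 and CAMP higher and those of AZU1, MPO and LTF lower.

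Other cells and the response to glucocorticoids also moved in the late window, and their part in the result was not tested. In this window 14.4% of all genes tested were called higher and 19.6% lower. Of 6 glucocorticoid response genes 4 rose (median 1.17), among them ZBTB16 (2.04 ± 0.48) and PER1 (1.35 ± 0.38). The summed level of the 6 was 914 to 17639 CPM in late samples (median 2268) against 1193 to 4106 CPM in controls (median 1734). The 6 did not move alike. Over all late samples FKBP5 had a median of 197.7 CPM, KLF9 16.8 and ZBTB16 25.1, against 219.1, 16.1 and 21.1 in controls. The late medians of DUSP1 (422.5 against 204.1), PER1 (62.5 against 46.5) and TSC22D3 (1480.7 against 1273.8) were higher. Of 5 monocyte markers 3 rose (summed level 864 to 4835 CPM, median 2548, against 583 to 4156 CPM, median 1382, in controls). All 4 B cell markers fell (median -2.14, summed level 36.4 to 600.3 CPM against 248 to 1632 CPM in controls). The 4 proliferation markers gave 0 calls, and of 3 progenitor markers 1 rose and 1 fell. Late calls were 3 of 3 platelet markers higher, 1 of 4 erythroid markers higher, 2 of 3 T cell and 2 of 3 basophil markers lower, and 0 of 3 NK cell and 0 of 3 eosinophil markers.

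ELANE and CTSG stayed rare. ELANE was 0 to 1.24 CPM in controls (median 0.400) and 0 to 4.32 CPM in late samples (median 0.882). With no filter on low counts its late log2 fold change was 1.01 ± 0.35 (adjusted p = 0.0251, edgeR), and against medium samples it was 1.10 ± 0.25 (adjusted p = 0.00168, edgeR). CTSG was 0 to 0.861 CPM in controls (median 0.140, and 7 of 24 samples at 0) and 0 to 2.16 CPM in late samples (median 0.375), with a late log2 fold change of 0.56 ± 0.60 (adjusted p = 0.478, edgeR). Its median count was 1.5 in controls and 3 in late samples, and 34 of 47 late samples lay above the median of controls.

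Many other granule genes also rose late, where 14.4% of all genes tested were called higher. Of 18 other specific and gelatinase granule genes 14 rose and 0 fell (median 1.37), led by the surface protein CD177 (2.87 ± 0.45), the peptidoglycan-binding PGLYRP1 (2.47 ± 0.37) and the acute phase protein ORM1 (2.17 ± 0.28). Of 7 other azurophil genes 4 rose and 0 fell (median 0.86), led by RNASE3 (1.75 ± 0.35), LYZ (1.35 ± 0.24) and the proteoglycan core SRGN (1.21 ± 0.24). As said above, RNASE3 is also a gene of eosinophil granules and LYZ one of monocytes. Of 5 protease inhibitors 4 rose (median 1.30), with SERPINB1, which inhibits elastase and cathepsin G, at 1.86 ± 0.23, SERPINA1, which encodes alpha-1-antitrypsin, at 1.33 ± 0.25 and SERPINB10 at 1.30 ± 0.23.

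Of 11 regulators of granule genes 7 rose and 0 fell late (median 1.25), where 14.4% of all genes tested were called higher and 19.6% lower. CEBPE, needed for specific granules, had a log2 fold change of 2.14 ± 0.31, from a mean of 1.82 to 8.38 CPM, CEBPB one of 1.94 ± 0.26 and KLF5 one of 1.49 ± 0.22. SPI1, which encodes PU.1, was at 1.44 ± 0.22, and the repressor GFI1 at -0.27 ± 0.17 (adjusted p = 0.194, edgeR). Among 15 late-stage neutrophil genes 14 rose (median 1.23), led by the calgranulin S100A12 (2.63 ± 0.32), the formyl peptide receptor FPR2 (2.34 ± 0.48) and PROK2 (2.06 ± 0.28).

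Over the 304 samples the members followed each other to different degrees. Correlations of log2 CPM centred on each animal are given as a description, since samples of an animal share it and depth and library number change with time. They were highest between CAMP and MMP9 (r = 0.87), BPI and MMP9 (r = 0.86) and LCN2 and MMP8 (r = 0.86). BPI, an azurophil protein, thus went with the specific and gelatinase members. AZU1 went with the others least, from r = 0.13 with MMP8 to r = 0.40 with MPO. The genes most like the mean of the azurophil members were LILRA2 (r = 0.86), TKT (0.85), VSIR (0.85), LILRA5 (0.85) and RAB3D (0.85), and those most like the specific and gelatinase members were PLAUR (0.92), CD177 (0.90), PYGL (0.90), TP53INP2 (0.90) and ORM1 (0.90). Most like AZU1 alone, chosen after the values were seen, were the complement factors CFP (0.73) and CFD (0.72).

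**Figure D4:**
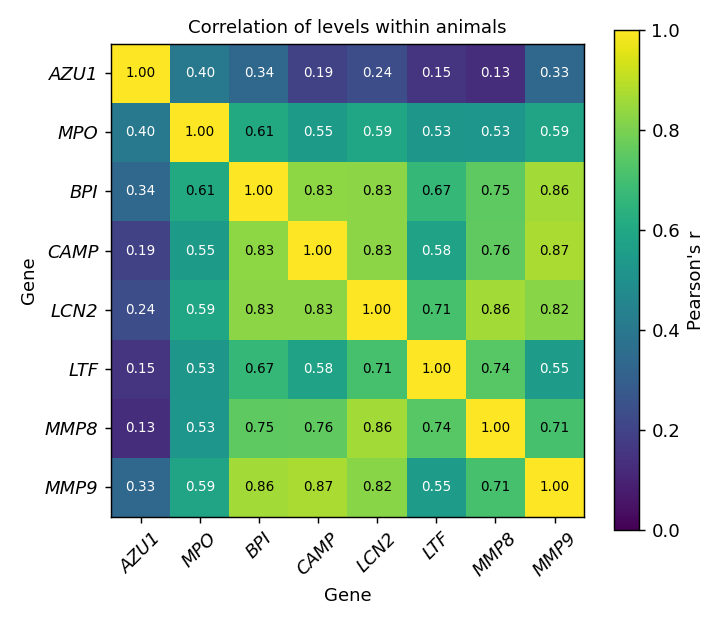
Pearson correlation between the 8 tested genes over 304 samples, on log2 CPM after taking off each animal's mean (colour and printed value are r). AZU1 has the lowest values (0.13 to 0.40), and BPI, LCN2, CAMP, MMP8 and MMP9 form a block of 0.71 to 0.87.

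The days of the highest level per animal followed this split. AZU1 was highest on Day 3 or Day 6 in 18 of 28 animals and on the last scheduled draw in 5. LCN2 was highest on the last scheduled draw in 20 of 28 animals, MMP9 in 19, MMP8 in 17, BPI and CAMP in 16 each, LTF in 14 and MPO in 9. Animals differ in the day and number of draws, so these counts are a description.

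The sexes did not pass the test of a difference for any member. Changes from control were compared between females and males in the early and the medium window, and 0 of 8 members were called in either, where 0% of all genes tested were. At an unadjusted p under 0.05 edgeR gave 0.894% of all genes early and 2.17% in the medium window.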

How the data were processed

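The authors depleted ribosomal RNA, made stranded total RNA libraries, trimmed the paired reads with cutadapt 2.10, aligned the pairs to Mmul_10 with STAR 2.7.6a and used Subread 2.0.1 for counts on RefSeq genes (tools per the submitters' processing notes). Whether the counting used the strand is not given in the sources used here. The deposited counts are whole reads per gene, not normalized, in all 304 samples. The authors' second deposited table holds log2 values scaled by the upper quartile, used here for an alternative only.

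Genes that reached 3 counts in 80% of samples or more were tested with edgeR 4.0.16 in R 4.3.3 (quasi-likelihood test, upper quartile scaling, animal as block, Benjamini-Hochberg adjustment over all 13751 genes). For windows all scheduled draws of an animal were added up, so that 1 animal was 1 replicate. Calls needed an adjusted p up to 0.05 together with a fold of 1.5 or more. Levels in CPM used the scaled library sizes, log2 CPM a prior count of 2, and RPKM the union of a gene's exons. Samples paired by animal, and deviations of the pairs correlated with a median r of 0.599 (early), 0.463 (medium) and 0.332 (late, above 0.1 in 9 of 12 pairs). The sequences are from RefSeq's Mmul_10 assembly, and all 10 genes matched by symbol. Some sequences are not reported here.

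The members and the gene lists were chosen with earlier results of these data known. Related genes were named by a rule, the 3 largest late changes past the threshold in each list, and the genes most like the members by their correlation. GFI1, SPI1, ZBTB16, PER1, CFP and CFD were named after their values were seen. Alternatives were TMM scaling, DESeq2 1.42.0, limma 3.58.1 on the deposited log2 values, no filter on low counts and no replicate block. Others were unscheduled draws added to each animal's sum, subsets by library number, dose or day, 1 fit over all samples with the library number range, and leaving out each animal. On simulated data with 13751 genes, edgeR recovered 91 of 108 genes changed by a fold of 2 and 92 of 92 changed by a fold of 4 in the late comparison, with 9 false calls. These counts were drawn gene by gene from the levels and spread that edgeR itself fitted. They held no shift of library number range or of cell types, so they do not measure errors from such shifts. Tables and figures used the R package data.table (version 1.17.8), pandas 2.3.3 and Matplotlib 3.10.9 with Python 3.11.15. No 2 count columns were identical.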

Additional observations from a re-analysis of the deposited data

Results flagged for a closer look

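The changes from control differed between doses over Day 30 to 60 for 7 genes, tested as an interaction by edgeR. The differences (10.7 Gy minus 9.8 Gy, log2 scale) were 1.85 for BPI, 1.31 for CAMP, 2.58 for LCN2, 1.53 for LTF, 2.86 for MMP8, 1.69 for MMP9 and 1.59 for MPO.

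Among 50 groups of 4 to 10 samples (a gene on a day), 2 held a sample far from the others, and chance gives about 1 in 20. AZU1 on Day 150 was lowest in animal B1502, with 0 counts (0 CPM, where 3 counts would be 1.21 CPM) against a median of 4.58 CPM over 9 samples, and this library also had 0 counts for ELANE and CTSG. CTSG on Day 240 was highest in animal B1503, with 8 counts (2.16 CPM) against a median of 0.413 CPM over 6 samples.

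The 8 unscheduled draws entered none of the main comparisons of windows or days. They entered the alternative that added them to each animal's sum, the 1 fit over all samples, and the correlations over all samples. The number of the 10 members above every control was 6 in B1001 on Day 127, 5 in B1002 on Day 160, 2 in B1504 on Day 102, 3 in B1506 on Day 172, 7 in B2004 on Day 71, 6 in B2501 on Day 77, 5 in B2504 on Day 94 and 6 in B2506 on Day 129. MMP9 was above the highest control (279 CPM) in 8 of these 8 draws, with 379 to 1534 CPM (median 823), and BPI (6.90 to 40.1 CPM, median 22.4) in 7 of 8. MPO, with 1.48 to 5.35 CPM, was above the highest control (5.51 CPM) in 0 of 8. In B2004 MMP8 was at 58.9 CPM on Day 71 against 2.27 CPM on Day 60, and LTF at 69.2 against 8.36 CPM. In B1504 and B1506 only 1 of the 10 members was above the level of the previous draw.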

How the results depend on the processing

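Of the tested genes 1 rose early. With 10.7 Gy animals only 2 were called (AZU1 and MPO), and on Day 9 to 21 only 0 were, where 5.82% and 5.61% of all genes were called higher. In the medium window 4 were called (4.28% of all genes), against 7 by DESeq2 (5.21%) and 7 with unscheduled draws added to each animal's sum (4.48%). With 10.7 Gy animals only 7 were called (7.15%), with 9.8 Gy animals only 0 (2.69%), and by limma on the deposited log2 values 2 (2.36%). BPI had a medium log2 fold change of -0.0336 in the 9.8 Gy animals, the 1 called value whose direction turned. CAMP (-0.01), MMP8 (-0.22) and MPO (-0.12), which were not called over both doses, also lay below 0 there. Without the replicate block, which pairs each animal with its own samples, 4 genes and not 2 were higher in the medium than in the early window (1.89% of all genes), and 4 and not 7 differed between doses (0.0436%). It moved no other count of calls by over 1.5 times. With Day 30 alone 0 and with Day 40 alone 1 differed between doses. Over the 15 scheduled days 36 calls were made, and 62 in 1 fit over all samples with the library number range as a term. The share of all genes called higher also moved between these fits, up on Day 270 (0% to 15.1%) and down on Day 30 (4.57% to 3.52%). On the 7 days that allowed a fit within 1 library number range, 15 calls were made against 9. On Day 30 and Day 40 that fit held only 4 animals, all at 10.7 Gy. The causes were not tested. Late against control, TMM and DESeq2 gave 8 of 8, where 17.0% and 18.6% of all genes were called higher, and limma 7 (13.1%). That comparison was not run within 1 range, since no animal had both.

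Leaving out 1 animal at a time gave 1 early call each time, 3 to 7 medium calls and 7 to 8 late calls. It gave 1 to 4 calls of medium against early, 7 to 8 of late against medium and 6 to 7 between doses. In the fits with all animals, 5.79% of all genes were called higher early, 4.28% in the medium window and 14.4% late. The share was 1.51% for medium against early, 9.85% for late against medium and 3.37% between doses. Shares of all genes were not recorded for the refits. Of single values under other settings, 1167 kept their side of the threshold, 88 passed it, 48 no longer passed it and 1 called value turned. Values that were not called also changed sign between settings and are not counted as turned. ELANE and CTSG had median counts of 5 and 1.5 in controls and 6 and 3 in late samples, so counting error was large for them.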

Other observations

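The related granule genes were also compared between windows. Set against the medium samples of the same 14 animals, 14 of 18 other specific and gelatinase granule genes, 3 of 7 other azurophil granule genes, 4 of 5 protease inhibitors, 6 of 11 regulators of granule genes and 14 of 15 late-stage neutrophil genes were higher late, where 9.85% of all genes tested were. Against control, where 4.28% of all genes were called higher in the medium window, the counts were as follows. Of 18 other specific and gelatinase granule genes 6 rose and 0 fell in the medium window (median log2 fold change 0.38, against -0.02 over all genes tested), and of 7 other azurophil granule genes 2 rose (median 0.24). Of 5 protease inhibitors 2 rose (median 0.37), of 11 regulators of granule genes 5 rose (median 0.57), and of 15 late-stage neutrophil genes 5 rose (median 0.21). Between doses over Day 30 to 60, 9 of 18 other specific and gelatinase granule genes, 4 of 11 regulators, 3 of 5 protease inhibitors and 1 of 7 other azurophil granule genes were higher at 10.7 Gy, where 3.37% of all genes were, and 0 of each list were lower. On Day 3, when AZU1 was highest, 5 of 11 regulators and 4 of 5 protease inhibitors were called higher, where 6.89% of all genes were.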
